A study of Mus musculus with 217 samples.

Results

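The CXC chemokine genes Cxcl1, Cxcl2, Cxcl3, Cxcl5, Cxcl9, Cxcl10, Cxcl11, Cxcl12 and Cxcl16 and the receptor gene Ackr3 were followed in the endothelium of brain, lung and heart of mice over the week after injection of lipopolysaccharide (LPS), the endotoxin of Gram-negative bacteria. The 10 genes, of 52550 genes in the count files, were chosen by name: Cxcl1, Cxcl2, Cxcl3 and Cxcl5, which attract neutrophils, Cxcl9, Cxcl10 and Cxcl11, which attract activated T cells, Cxcl12 with its scavenger receptor Ackr3, and Cxcl16. All mice were adult C57BL/6J animals of genotype Cdh5CreERT2/+; Rpl22HA/+. Tamoxifen (4 doses of 5 mg on alternate days, given by gavage to mice of 4 to 6 weeks) had been used in all of them, so that the Cdh5 promoter, active in vascular endothelial cells (ECs), switched on an HA-tagged ribosomal protein and ribosome-bound RNA of ECs could be pulled from whole tissue. Tissue was taken 6, 24, 48, 72 or 168 hr after 10 mg/kg LPS given into the peritoneum, and the 0 hr mice served as controls. The controls had received PBS instead. Because Cre acts in the ECs of every vessel type, a value is an average over arteries, capillaries and veins of a tissue, and fewer cells of a type cannot be told apart from less RNA per cell.

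CXC chemokines are small secreted proteins that leukocytes follow by way of CXCR receptors. Cxcl1, Cxcl2, Cxcl3 and Cxcl5 carry the ELR motif and signal through Cxcr2, the main chemotactic receptor of neutrophils, and they are classical targets of NF-kappaB, the transcription factor that LPS activates through Toll-like receptor 4. Cxcl9, Cxcl10 and Cxcl11 are induced by interferons and share the receptor Cxcr3 of activated T cells and natural killer cells. Cxcl12 is a homeostatic chemokine that retains Cxcr4-bearing leukocytes, Ackr3 binds and removes Cxcl12 without classical G protein signalling, and Cxcl16 is made as a membrane-bound ligand of Cxcr6.

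The 217 sequencing runs were summed to 98 libraries. From these, 18 libraries, all of one naming pattern of the count files (library series 3), were left out because 1.73% to 2.75% of their reads were counted on genes, below the limit of 3%. The remaining 80 libraries, 28 of brain, 28 of heart and 24 of lung, held 284457 to 43417945 counts on genes. Brain and heart had 5, 5, 4, 6, 4 and 4 libraries at 0, 6, 24, 48, 72 and 168 hr, and lung had 4, 4, 2, 6, 4 and 4. Levels are given as CPM, the counts scaled to a common total on library sizes scaled by TMM, and a gene is said to have risen or fallen where the edgeR quasi-likelihood test gave an adjusted p (Benjamini-Hochberg over all genes tested) under 0.05. The labels do not state which mouse a library came from, so p-values measure the spread between these libraries, part of which may be technical.

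One mouse stood apart before any comparison. The libraries labelled 6 hr that belong to library series 1 by their file names (brain replicate 6, heart replicate 5 and lung replicate 4) held most chemokines near their 0 hr level in brain and heart. In lung this library held 140 CPM of Cxcl5 and 112 CPM of Cxcl1 (5 and 4 counts) but 0 CPM of Cxcl2, Cxcl10 and Ackr3, and it had 284457 counts only, with 3.41% of its reads on genes. The summed level of 11 NF-kappaB target genes was 624 CPM in this brain library and 1205 CPM in this heart library, against 303 to 760 CPM and 696 to 969 CPM at 0 hr. In this lung library the sum was 45215 CPM, the highest of the lung libraries of 0 and 6 hr, against 1885 to 5584 CPM at 0 hr and 9793 to 18475 CPM in the other 6 hr libraries. The scaling bears on these lung values: its TMM factor was 0.125, against 0.242 to 1.43 in the other 79 libraries, so that 1 count is 28.1 CPM, and 3.52 CPM without TMM scaling, where the NF-kappaB sum is 5656 CPM. These 3 libraries are called the series 1 mouse of 6 hr, they were kept in the main tests, and the plot of fitted changes at 6 hr also gives each gene without them. The labelled tissue was checked against marker genes. The summed level of 10 endothelial markers at 0 hr was 1699 to 3554 CPM in brain, 11822 to 16681 CPM in lung and 9049 to 10616 CPM in heart, beside 802 to 3219 CPM for 3 neuronal markers in brain, 5719 to 11306 CPM for 5 lung epithelial markers in lung and 2097 to 3848 CPM for 4 cardiomyocyte markers in heart. At 6 hr the endothelial sum was 896 to 2384 CPM in brain, 1810 to 13416 CPM in lung and 3056 to 9991 CPM in heart. The highest brain and heart sums are the series 1 mouse. Without it the sum was 896 to 1549 CPM in brain and 3056 to 5555 CPM in heart, below every control. In lung at 6 hr the cardiomyocyte sum was 77.8 to 1954 CPM, against 33.9 to 136 CPM at 0 hr. The neuronal sum there was 4.12 to 506 CPM, against 6.48 to 13.1 CPM. The part of these other cells in the chemokine levels was not tested.

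The neutrophil-attracting and the T-cell-attracting ligands form 2 clusters on chromosome 5 of mm10. Cxcl5 (chr5:90759360-90761624), Cxcl3 (chr5:90786103-90789600), Cxcl1 (chr5:90891241-90893115) and Cxcl2 (chr5:90903871-90905938) are on the plus strand, and Cxcl9 (chr5:92321347-92328079), Cxcl10 (chr5:92346638-92348889) and Cxcl11 (chr5:92359544-92365485) are on the minus strand. Cxcl12 (chr6:117168535-117181367, plus strand), Cxcl16 (chr11:70453983-70459984, minus strand) and Ackr3 (chr1:90203980-90216751, plus strand) lie elsewhere. To show the letters upstream of ligands that rose at 6 hr, the 250 bases upstream of the start sites were read from RefSeq (GRCm38.p6), which held a promoter for 7 of the 10 genes (not matched were Cxcl5, Cxcl11 and Cxcl16). The sequences of the 5 ligands among them are shown 5′ to 3′ on the strand of the gene, with letters in capitals where they match, on either strand, an NF-kappaB type pattern (GGGA and TTCC with any 2 bases between them) or GAAANNGAA (interferon-stimulated response element type). The regions are chr5:90890995-90891244 for Cxcl1, chr5:90903649-90903898 for Cxcl2, chr5:90785851-90786100 for Cxcl3, chr5:92328080-92328329 for Cxcl9 and chr5:92348890-92349139 for Cxcl10.
Cxcl1: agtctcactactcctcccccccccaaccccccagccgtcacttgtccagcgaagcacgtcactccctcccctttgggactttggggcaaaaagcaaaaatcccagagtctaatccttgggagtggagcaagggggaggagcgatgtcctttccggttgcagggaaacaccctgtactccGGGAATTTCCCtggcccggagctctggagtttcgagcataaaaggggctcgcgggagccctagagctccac
Cxcl2: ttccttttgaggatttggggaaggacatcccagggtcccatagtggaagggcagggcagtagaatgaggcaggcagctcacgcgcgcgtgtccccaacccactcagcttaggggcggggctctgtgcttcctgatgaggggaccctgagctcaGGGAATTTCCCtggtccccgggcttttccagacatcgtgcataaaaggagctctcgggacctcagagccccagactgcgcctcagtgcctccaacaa
Cxcl3: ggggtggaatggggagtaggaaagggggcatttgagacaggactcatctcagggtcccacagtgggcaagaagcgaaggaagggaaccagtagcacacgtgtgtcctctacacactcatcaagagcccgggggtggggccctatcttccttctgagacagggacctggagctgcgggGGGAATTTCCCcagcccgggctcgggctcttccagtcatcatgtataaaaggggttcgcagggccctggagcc
Cxcl9: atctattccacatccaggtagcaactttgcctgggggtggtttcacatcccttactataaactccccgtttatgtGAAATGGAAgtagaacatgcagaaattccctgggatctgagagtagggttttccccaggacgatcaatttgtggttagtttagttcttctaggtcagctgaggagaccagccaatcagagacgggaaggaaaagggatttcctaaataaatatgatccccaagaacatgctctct
Cxcl10: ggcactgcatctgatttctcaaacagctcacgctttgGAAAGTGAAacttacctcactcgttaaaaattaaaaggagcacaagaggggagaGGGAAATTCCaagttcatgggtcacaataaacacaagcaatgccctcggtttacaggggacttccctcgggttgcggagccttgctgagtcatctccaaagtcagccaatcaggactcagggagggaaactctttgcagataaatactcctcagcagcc

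Cxcl1, Cxcl2 and Cxcl3 held the same stretch of letters, GGGAATTTCCC, which begins at -71, -97 and -73 from the start site. Over all 32851 promoters of 300 bases (250 before and 50 after the start), 14 held this stretch (0.0426%) and 482 held any match to the NF-kappaB type pattern (1.47%). The stretch holds overlapping matches to that pattern on both strands. Cxcl9 held GAAATGGAA at -175. Cxcl10 held both kinds, GAAAGTGAA at -213 and GGGAAATTCC at -159, where GAAANNGAA matched 2812 promoters (8.56%). Neither pattern occurred in the windows of Cxcl12 and Ackr3, and TTCNNNGAA (STAT type), which matched 2726 promoters (8.3%), occurred in none of the 7. These matches describe letters in the window, and factor binding was not measured.

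All 10 genes passed the filter on low counts in each tissue, and at 6 hr nearly all of them had changed. In brain 9 rose and Cxcl12 fell, where 6.44% of 19234 genes tested were called. The same 9 rose and Cxcl12 fell in heart, where 42.8% of 16024 genes were called. In lung Cxcl1, Cxcl2, Cxcl3, Cxcl9, Cxcl10 and Cxcl11 rose, where 4.83% of 17058 genes were called. Lung replicates 1 and 2 of 6 hr had 6.93% and 8.12% of reads on genes and endothelial sums of 1810 and 4853 CPM. Replicate 3 had 33.9% and 13416 CPM. Replicate 2 also held 1954 CPM of cardiomyocyte markers, and its part in these calls was not tested. Replicate 3 held less Cxcl9 and Cxcl10 (25.4 and 75.1 CPM) than replicates 1 and 2. It was above every control for these 6 genes. The median log2 fold change over the 10 genes was 6.69 in brain, 8.37 in heart and 6.02 in lung, beside 0.0039, -0.050 and -0.42 over all genes tested, so that lung values at 6 hr are to be read against a shift of -0.42. With Cxcl3, which had 0 counts in the heart and lung controls, set to its lower bound, the medians were 8.24 in heart and 5.87 in lung. Without the series 1 mouse of 6 hr the same 10, 10 and 6 genes were called, with edgeR adjusted p of at most 0.00273, 2.69e-05 and 0.00932. Leaving aside Cxcl3 and lung Cxcl11, which had 0 to 2 counts in the controls, the log2 fold changes of those that rose were then 1.72 (Cxcl16) to 13.36 (Cxcl2) in brain, 1.98 (Ackr3) to 11.48 (Cxcl2) in heart and 5.97 (Cxcl1) to 8.22 (Cxcl2) in lung. The brain Cxcl2 value rests on controls of 0 to 0.105 CPM, so its size is uncertain. Within library series 2 its mean log2 CPM (prior count 2) was higher by 10.24.

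Fewer of the 10 genes were called at later times. At 24 hr 7 genes rose and Cxcl12 fell in brain (11.2% of all genes called), 8 rose and Cxcl12 fell in heart (16.2%), and Cxcl2, Cxcl9 and Cxcl10 rose in lung (0.375%). With 2 lung libraries at 24 hr, each lung call was lost without any 1 of 4 or 5 libraries (edgeR adjusted p 0.0667 to 1). At 48 hr Cxcl1, Cxcl2, Cxcl3 and Cxcl5 were still high and Cxcl12 low in brain (14.2%), Cxcl1, Cxcl2 and Cxcl5 were high in heart (4.19%), and Cxcl2 was high in lung (0.598%). At 72 hr Cxcl1 alone passed the test in brain (3.53%), and none of the 10 did in heart (0.275%) or lung (0.193%) by edgeR, where 5 and 3 had an unadjusted p under 0.05 and DESeq2 called 3 and 1. Leaving out the series 1 mouse of 6 hr gave 7 calls in heart at 48 hr (Cxcl3, Cxcl9, Cxcl10 and Cxcl16 added), 4 in heart at 72 hr (Cxcl1, Cxcl2, Cxcl5 and Cxcl16) 2 in brain at 72 hr (Cxcl12 added) and Cxcl9 in brain at 48 hr (2.82, edgeR adjusted p = 0.039). At 168 hr none passed by edgeR in brain (0% of all genes), heart (0%) or lung (0.0117%), while 828, 680 and 605 of all genes had an unadjusted p under 0.05. Among the 10 these were 0, 0 and 2, Cxcl1 and Cxcl5 in lung, and DESeq2 called 0, 0 and 1 (Cxcl1).

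**Figure D1:**
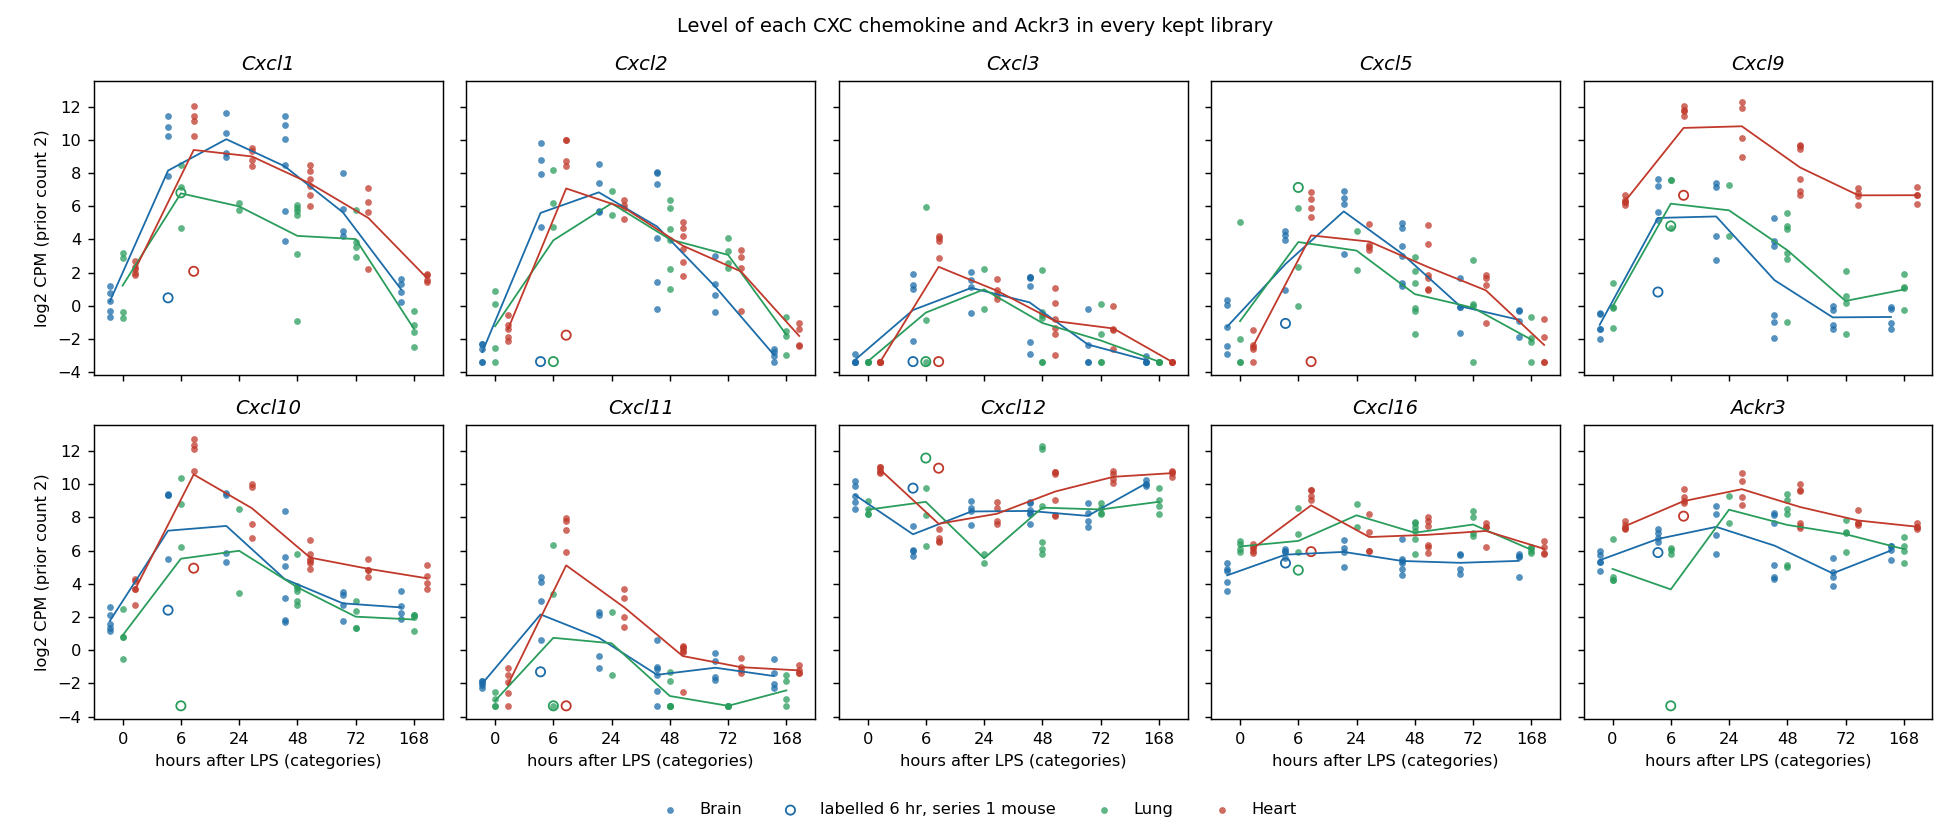
Level of each of the 10 genes in every kept library, as log2 CPM (prior count 2), against hours after LPS drawn as evenly spaced categories, with brain in blue, lung in green and heart in red. Lines join the group means, and open circles are the libraries labelled 6 hr of the series 1 mouse, which lie near the 0 hr points for most genes in brain and heart. The group means of the neutrophil-attracting genes stay high to 48 hr in brain, where the series 2 libraries of 48 hr are the lowest. Cxcl12 runs the opposite way to the other ligands in brain and heart.

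All 4 neutrophil-attracting ligands rose at 6 hr in brain and heart, and Cxcl1, Cxcl2 and Cxcl3 did in lung. Cxcl1, also called KC, was at 0.544, 0.704, 1.11, 1.62 and 2.23 CPM in the 0 hr brain libraries and at 1.30, 231, 1184, 1744 and 2776 CPM at 6 hr, where the lowest value is the series 1 mouse. The other 4 libraries lay far above every control. The log2 fold change was 10.12 ± 1.48 (SE, edgeR adjusted p = 0.000199), and 10.58 (adjusted p = 2.75e-07) without the series 1 mouse. At 24 hr the 4 brain libraries held 491, 602, 1341 and 3077 CPM, and at 48 hr the 6 libraries ran from 15.2 over a median of 710 to 2713 CPM. All lay above the control range, as did the 72 hr libraries at 18.7, 22.3, 57.0 and 257 CPM, and at 168 hr the values of 1.07 to 2.94 CPM overlapped it again. The log2 fold change was 8.60 ± 1.43 at 24 hr (edgeR adjusted p = 0.000633) and 8.25 ± 1.46 at 48 hr (0.000938). That of 72 hr was 4.75 ± 1.25 (edgeR adjusted p = 0.0311), a call lost without any 1 of 7 libraries (0.0507 to 0.0942).

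In heart Cxcl1 was at 3.52, 3.87, 4.53, 5.07 and 6.48 CPM at 0 hr and at 4.14, 1219, 2221, 2783 and 4300 CPM at 6 hr, the lowest again in the series 1 mouse. The 24 hr libraries held 338, 444, 635 and 725 CPM, and the 48 hr libraries 64.8 to 359 CPM with a median of 177 CPM. No value of 24 or 48 hr reached into the control range. The log2 fold change was 8.87 ± 1.08 at 6 hr (edgeR adjusted p = 1.06e-05), 6.29 ± 0.99 at 24 hr (0.000862) and 4.93 ± 0.92 at 48 hr (0.00261). In lung Cxcl1 was at 0.498, 0.673, 7.21 and 8.84 CPM at 0 hr and at 25.3, 112, 144 and 353 CPM at 6 hr. The groups did not overlap, at levels well under those of brain and heart. The log2 fold change was 5.54 ± 1.04 (edgeR adjusted p = 0.00301), and that of 24 hr, with 55.0 and 73.8 CPM in its 2 libraries, was 2.93 ± 1.14 (0.557).

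Cxcl2, known as MIP-2, rose at 6 hr in all 3 tissues. It was at 0 to 0.105 CPM in brain and 0.134 to 0.572 CPM in heart at 0 hr, and apart from the series 1 mouse (0 and 0.197 CPM) the 6 hr libraries held 27.0, 250, 450 and 900 CPM in brain and 343, 424, 1017 and 1017 CPM in heart. In lung, 0 hr values of 0, 0.0748, 0.965 and 1.77 CPM stood against 0 CPM in the shallow series 1 library and 27.0, 74.6 and 289 CPM in the other 3. Every library outside the series 1 mouse was above all controls of its tissue. In the fit the log2 fold change at 6 hr was 12.55 ± 1.91 in brain (edgeR adjusted p = 0.000245), 10.96 ± 1.29 in heart (8.97e-06) and 7.65 ± 1.28 in lung (0.00119). Cxcl2 was the one ligand called in lung at 48 hr (log2 fold change 4.99 ± 1.15, edgeR adjusted p = 0.0333), with 1.91 to 82.0 CPM, and this call was lost without any 1 of 6 libraries (adjusted p 0.0544 to 0.11).

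Cxcl3 was read at 0 counts in every 0 hr library of heart and lung and by 1 count in brain. Without the series 1 mouse, its counts at 6 hr were at least 390-fold higher in heart, measured against a floor of 3 counts over the control group, and at 24 hr at least 56.8-fold. Its ratio in brain was 200 at 6 hr (95% counting interval 35.5 to 7941) and 241 at 24 hr (42.8 to 9546). In lung the bound of 73.8-fold at 6 hr rested mainly on 1 library, since the values were 0, 0, 0.458 and 61.2 CPM. Counting intervals and floors cover counting error only.

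Cxcl5, also called LIX, had its highest brain values at 24 hr. The brain libraries held 0.0349 to 1.16 CPM at 0 hr, and 0.383, 1.86, 15.4, 18.9 and 22.4 CPM at 6 hr. At 24 hr they held 8.68, 71.7, 92.1 and 124 CPM. Its log2 fold change was 4.60 ± 0.92 at 6 hr (edgeR adjusted p = 0.00252) and 5.74 ± 1.03 at 24 hr (0.00123), and the difference between the times was not called (1.14 ± 1.00, adjusted p = 0.711). In heart Cxcl5 was at 0 to 0.262 CPM at 0 hr, at 40.9 to 118 CPM in the 4 other libraries of 6 hr, and at 10.1 to 30.6 CPM at 24 hr. In the fit the log2 fold change at 6 hr was 9.57 ± 1.41 (edgeR adjusted p = 3.66e-05). Lung controls were split, with 0, 0, 0.150 and 33.0 CPM, and overlapped the 6 hr values of 0.882, 5.06, 60.1 and 140 CPM (log2 fold change 4.58 ± 1.68, edgeR adjusted p = 0.103).

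All 3 T-cell-attracting ligands rose at 6 hr in brain, heart and lung. Cxcl10, also called IP-10, was at 6.55, 12.7, 12.7, 17.6 and 19.0 CPM in heart at 0 hr and at 30.5, 1746, 4365, 5330 and 6843 CPM at 6 hr, where the lowest is the series 1 mouse. Brain went from 2.09 to 5.89 CPM to 5.21, 44.1, 652, 661 and 669 CPM, and lung from 0.589 to 5.54 CPM to 0, 75.1, 440 and 1318 CPM. Outside the series 1 mouse no library overlapped its controls. In the fit the log2 fold change at 6 hr was 7.88 ± 0.95 in heart (edgeR adjusted p = 9.72e-06), 7.45 ± 1.24 in brain (0.000491) and 7.11 ± 1.14 in lung (0.000947). By 24 hr the libraries of each tissue had spread apart: brain held 39.0, 57.5, 647 and 700 CPM, heart 110, 192, 893 and 1037 CPM, and lung 10.8 and 367 CPM. In each tissue the lower values were of library series 1 or 2 and the higher ones of series 4, a series without a 0 hr library, so that series and mouse cannot be told apart there. Cxcl10 exons overlap those of Art3 on the other strand over 133 bases, and whether reads were counted by strand is not given in the sources used here.

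Cxcl9, or MIG, had a higher control level in heart than in brain or lung. Its 0 hr values there were 66.6, 75.0, 76.7, 84.1 and 103 CPM, against 0.158 to 0.634 CPM in brain and 0.295 to 2.54 CPM in lung. Heart held 101, 2724, 3376, 3517 and 4166 CPM at 6 hr and 512, 1103, 3825 and 4913 CPM at 24 hr. Its 6 hr libraries other than the series 1 mouse and all its 24 hr libraries were above every control. In the fit the log2 fold change in heart was 5.09 ± 0.77 at 6 hr (edgeR adjusted p = 4.69e-05) and 4.22 ± 0.78 at 24 hr (0.00200). In brain Cxcl9 was at 1.69, 36.4, 49.8, 148 and 196 CPM at 6 hr (7.78 ± 1.20, edgeR adjusted p = 0.000264), and in lung at 25.4, 28.1, 190 and 190 CPM (6.50 ± 1.04, 0.000947). The brain library of the series 1 mouse was above the controls for Cxcl9, while its lung value of 28.1 CPM is 1 count, whose 95% counting interval (0.712 to 157 CPM) reaches into the control range.

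Cxcl11, or I-TAC, is annotated as a polymorphic pseudogene, so its RNA cannot be taken to give a working ligand in these mice, and protein was not measured. In addition, 1582 bases of its exons overlap Gm2673 on the opposite strand, so its values are uncertain. It was at 0 to 0.367 CPM in heart at 0 hr, and the 6 hr libraries held 60.6, 150, 221 and 247 CPM outside the series 1 mouse, which was at 0 CPM. The fitted log2 change was 9.12 ± 1.17 (edgeR adjusted p = 1.23e-05). In brain it reached 21.2 CPM at most (5.92 ± 1.07, edgeR adjusted p = 0.00106). In lung 2 counts at 0 hr stood against 374 counts at 6 hr, a ratio of 331 (95% counting interval 91.1 to 2746), all in replicates 2 and 3. The lung call (9.32 ± 2.05, edgeR adjusted p = 0.00952) was lost without replicate 3 of 0 hr (0.0569). Cxcl11 was not called in brain at 24 hr (3.31 ± 1.19, edgeR adjusted p = 0.0702), and it was without the series 1 mouse of 6 hr (3.09, 0.0426).

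**Figure D2:**
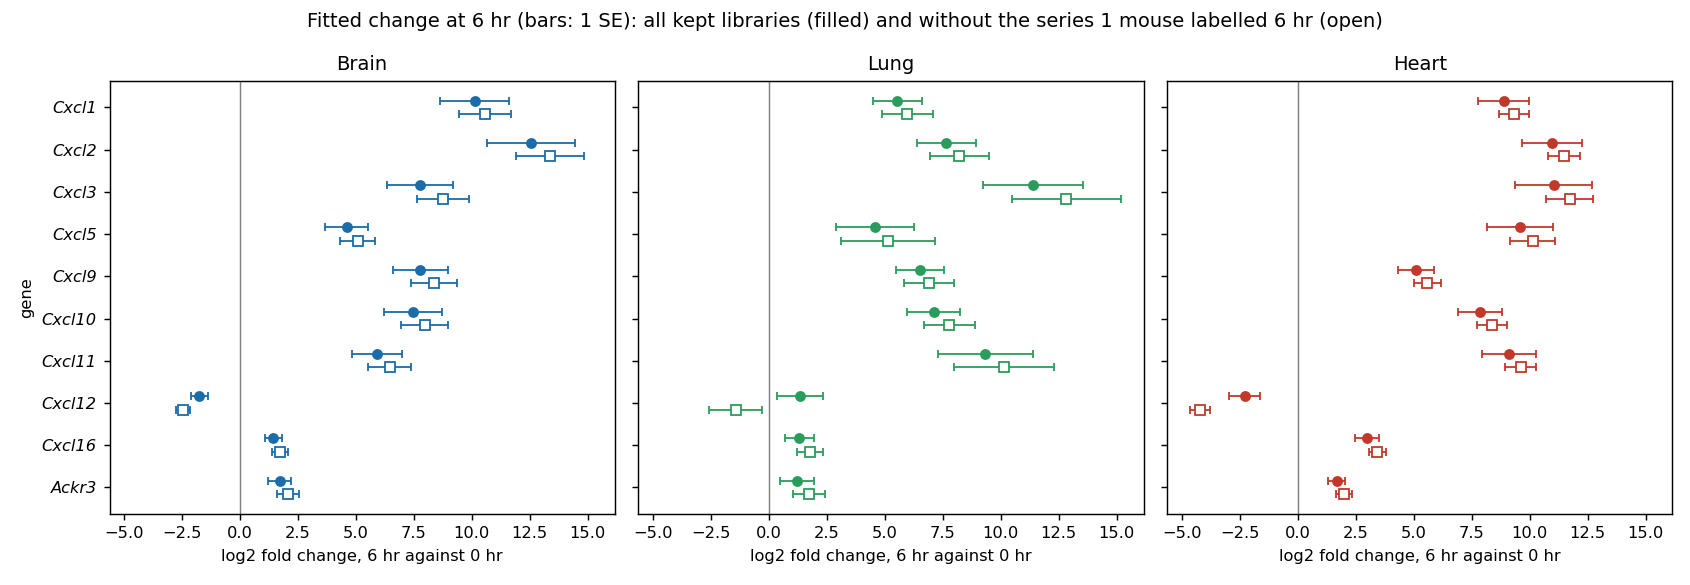
Fitted log2 fold change of each of the 10 genes at 6 hr against 0 hr in brain, lung and heart, with bars of 1 SE, for all kept libraries (filled circles) and without the series 1 mouse of 6 hr (open squares). Cxcl12 in lung is the one gene whose fitted value changed sign, from 1.35 to -1.43.

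The 2 kinds of ligand were compared as sums per library, of Cxcl1, Cxcl2, Cxcl3 and Cxcl5 on one side and of Cxcl9, Cxcl10 and Cxcl11 on the other, in CPM per kb of exon. RNA of Cxcl11 was counted in the second sum, though the gene is annotated as a polymorphic pseudogene. No test was made, since the genes were chosen with earlier results of these data known. In brain the median neutrophil-attracting sum was the higher one from 6 to 72 hr. The median log2 ratio of the neutrophil-attracting over the T-cell-attracting sum, with 0.1 added to each, was -0.20 at 0 hr and 1.67 at 6 hr (1.79 without the series 1 mouse), and it was 2.99, 4.76 and 2.68 at the next 3 times. It was positive in 4 of 5 libraries at 6 hr and in all libraries of 24, 48 and 72 hr, and at 168 hr it was -1.09, with 0 of 4 positive. In heart, per kb of all exons, the median T-cell-attracting sum was the higher one at each time: the log2 ratio was -3.72, -0.97, -1.38, -0.52, -0.63 and -4.51 from 0 to 168 hr, and 1 of 6 libraries at 48 hr and 1 of 4 at 72 hr were positive. Per kb of the longest coding transcript the heart median turned to 0.21 at 48 hr and was -0.0057 at 72 hr, so that its sign there depends on the length used. In lung the libraries of 0, 6, 24 and 48 hr lay on both sides of 0. The ratio there ran from -2.57 to 5.67 at 0 hr and from -2.42 to 3.85 at 6 hr, and it was positive in 5 of 6 libraries at 48 hr, 4 of 4 at 72 hr and 0 of 4 at 168 hr, where it ran from -3.13 to -0.82.

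The sums themselves show which kind moved. From 0 to 6 hr the median neutrophil-attracting sum went from 1.04 to 765 CPM per kb in brain and from 2.55 to 1725 in heart, and the T-cell-attracting sum from 1.42 to 304 in brain and from 33.4 to 3335 in heart. At 48 hr the brain libraries held a median of 432 CPM per kb of the neutrophil-attracting ligands and 11.9 of the T-cell-attracting ones. The neutrophil-attracting sum was 9.87 and 29.95 in the series 2 libraries and 205 to 1587 in the others, so that its median lies between them. All 52403 genes with a symbol were also ranked by median level per kb without the series 1 mouse, here without TMM scaling. Cxcl10 was 17th, Cxcl1 32nd and Cxcl9 35th in heart at 6 hr, and Cxcl1 was 24th in brain. Levels per kb depend on the length used, and exons of Cxcl1, Cxcl2, Cxcl3 and Cxcl10 cover their whole gene in the annotation. With the mean of log2 levels over the genes of each kind in place of sums, the median difference was -0.60 in brain at 6 hr and 1.69 at 24 hr, so that the sign in brain at 6 hr depends on this choice.

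**Figure D3:**
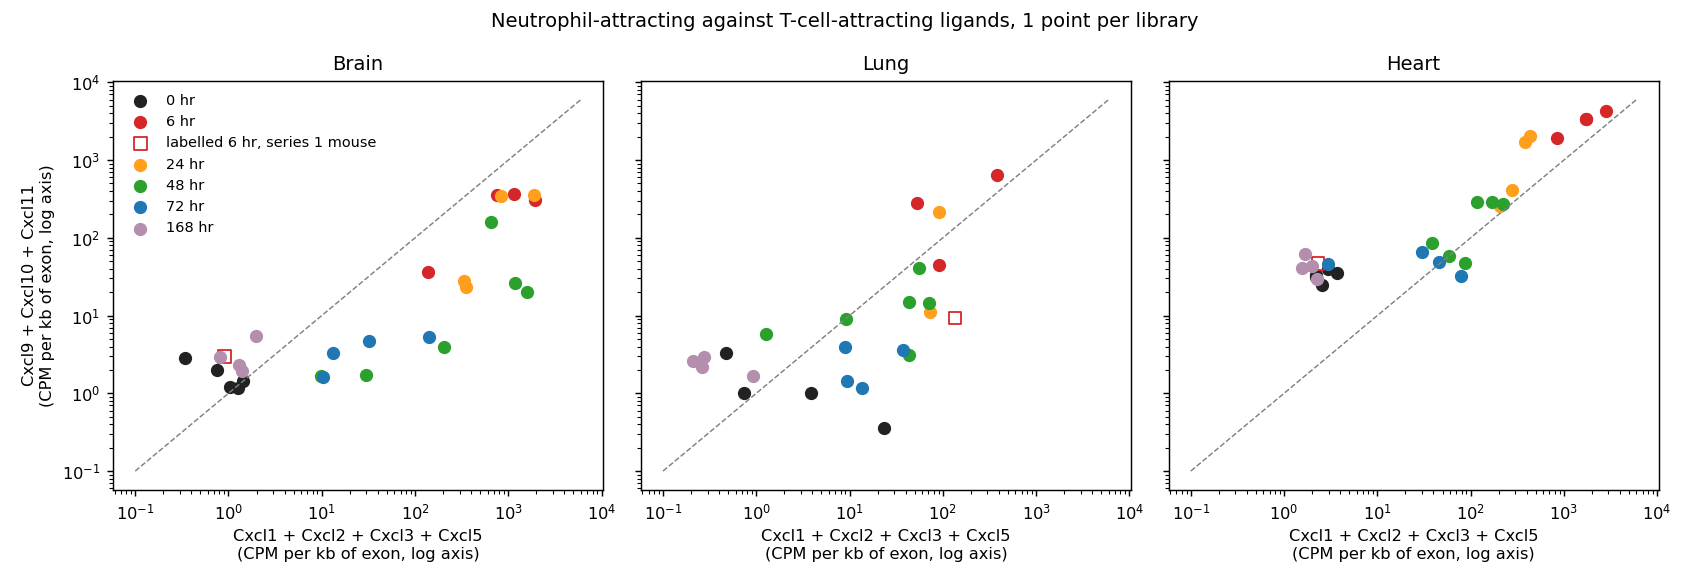
Summed level of Cxcl9, Cxcl10 and Cxcl11 against that of Cxcl1, Cxcl2, Cxcl3 and Cxcl5, in CPM per kb of exon on log axes, with 1 point per library, colours for time after LPS and a dashed line of equal sums. Open squares are the libraries of the series 1 mouse of 6 hr. Brain libraries of 24 to 72 hr lie below the line, and most heart libraries lie above it.

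Neutrophil markers rose in heart and lung at 6 hr. In heart the summed level of 8 neutrophil markers was 0.531 to 0.954 CPM at 0 hr and 0.526 to 61.1 CPM (median 41.8) at 6 hr, and all 6 that passed the filter rose. In lung the sum was 29.9 to 216 CPM at 0 hr and 28.1 to 3588 CPM (median 2585) at 6 hr, with 5 of 8 higher, and in brain 5.71 to 52.5 CPM against 6.97 to 398 CPM, with 1 of 7 higher. The 398 CPM is brain replicate 2, and the other brain libraries of 6 hr reached 48.0 CPM at most. Replicate 2 also held 2924 CPM of mural and 3943 CPM of astrocyte markers, beside 1549 CPM of endothelial ones. It had the highest Cxcl1, Cxcl2 and Cxcl3 of brain at 6 hr, but not the highest Cxcl5. The shares of all genes called at 6 hr were 42.8% in heart, 4.83% in lung and 6.44% in brain. Of 7 T-cell markers, 0 of 4 tested in brain and 0 of 7 in lung were called by edgeR at 6 hr (1 and 0 at an unadjusted p under 0.05), and none passed the filter in heart, where their sum was 0.283 to 1.10 CPM before LPS and 0.197 to 0.713 CPM at 6 hr. Of 9 monocyte and macrophage markers 2 rose in each tissue at 6 hr and 1 fell in heart, where the median log2 fold change of the list was -0.55 and 42.8% of all genes were called. At 48 hr 4 of 7 neutrophil markers (median log2 fold change 2.08) and 7 of 9 macrophage markers (2.27) were higher in brain, where 14.2% of all genes were called. In heart at that time 6 of 6 neutrophil and 5 of 9 macrophage markers were higher (4.19% of all genes called), and in lung 6 of 8 and 2 of 9 (0.598%). Of the defining neutrophil markers, Ly6g was at a median of 0 CPM in heart. The part of RNA from leukocytes in the ligand levels was not tested.

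Cxcl12, the homeostatic ligand, ran against the others in brain and heart. In heart, where it ranked 122nd of all genes per kb at 0 hr, the controls held 1614, 1684, 1825, 2090 and 2127 CPM and the 6 hr libraries 89.5, 94.1, 109, 155 and 1987 CPM, the highest in the series 1 mouse. In brain the controls held 358, 495, 626, 932 and 1177 CPM and the 6 hr libraries 50.2, 62.9, 65.4, 176 and 865 CPM. Outside the series 1 mouse every 6 hr library was below every control. On the log2 scale the change was -2.29 ± 0.68 in heart (edgeR adjusted p = 0.00988) and -1.76 ± 0.36 in brain (0.00327), and without that mouse -4.21 (1.95e-08) and -2.47 (2.45e-06). At 24 hr heart libraries held 195, 220, 378 and 479 CPM (-2.37 ± 0.75, edgeR adjusted p = 0.0361) and brain libraries 183, 326, 372 and 512 CPM (-1.33 ± 0.41, 0.0380). These calls were lost without any 1 of 7 libraries in heart (adjusted p 0.0565 to 0.107) and of 8 in brain (0.0512 to 0.0999). At 168 hr heart was back at 1401 to 1783 CPM, and brain at 964 to 1221 CPM.

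Lung Cxcl12 did not follow this course. Its controls held 291, 294, 359 and 498 CPM, and its 6 hr libraries 77.9, 278, 867 and 3035 CPM, on both sides of the controls. The highest value is the shallow series 1 library, where 108 counts are 380 CPM without TMM scaling. The 867 CPM of replicate 2 is raised by TMM scaling too, so that the values above the controls depend on the scaling. Without TMM scaling the median level per kb was 23.0 in the 3 other libraries of 6 hr and 32.7 at 0 hr. Its log2 fold change was 1.35 ± 1.00 (edgeR adjusted p = 0.427), and -1.43 (0.488) without that library. At 24 hr both lung libraries, at 38.6 and 55.2 CPM, were below the controls (-1.96 ± 1.44, edgeR adjusted p = 1).

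Ackr3, the scavenger of Cxcl12, rose at 6 hr in brain and heart and at 24 hr in heart. In heart it was at 160, 163, 164, 186 and 224 CPM at 0 hr, at 268, 468, 514, 604 and 825 CPM at 6 hr and at 435, 586, 1141 and 1620 CPM at 24 hr. All libraries of 6 and 24 hr were above the controls, the series 1 mouse included. The fitted log2 change was 1.68 ± 0.37 at 6 hr (edgeR adjusted p = 0.00145) and 1.66 ± 0.41 at 24 hr (0.0111). In brain Ackr3 went from 27.1 to 63.2 CPM at 0 hr to 58.7, 90.9, 109, 132 and 158 CPM at 6 hr (1.71 ± 0.50, edgeR adjusted p = 0.0378), a call that was lost without any 1 of the other 9 libraries of 0 and 6 hr (adjusted p 0.0543 to 0.0991). In lung the 6 hr values were 0, 56.4, 64.5 and 70.8 CPM against controls of 18.3, 18.9, 21.1 and 105 CPM (1.22 ± 0.73, edgeR adjusted p = 0.318). Both lung libraries of 24 hr, at 200 and 621 CPM, were above the controls (2.29 ± 0.87, edgeR adjusted p = 0.533).

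Cxcl16, the transmembrane ligand, was present in all controls and rose at 6 hr in brain and heart. In heart it was at 58.4 to 82.7 CPM at 0 hr and at 61.0, 529, 635, 804 and 817 CPM at 6 hr, and in brain at 11.6 to 37.9 CPM and at 37.9, 46.7, 59.2, 61.9 and 69.4 CPM. On the log2 scale the change was 2.99 ± 0.51 in heart (edgeR adjusted p = 0.000148) and 1.44 ± 0.35 in brain (0.0113). Lung went from 59.7 to 95.8 CPM to 28.1, 59.5, 130 and 382 CPM, groups that overlap, where the lowest 6 hr value is 1 count (1.31 ± 0.63, edgeR adjusted p = 0.204). At 24 hr Cxcl16 was called in brain alone (1.19 ± 0.38, edgeR adjusted p = 0.0446), and this call was lost without any 1 of 8 libraries (adjusted p 0.0507 to 0.177). It was called in heart as well without the series 1 mouse of 6 hr (1.18, edgeR adjusted p = 0.016). The heart libraries of 24 hr held 292 CPM in series 1, 137 CPM in series 2 and 63.7 and 62.4 CPM in series 4. The series 4 values lay within the control range, and series and mouse cannot be told apart there. Exons of Cxcl16 overlap those of Zmynd15 on the other strand over 552 bases.

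Before LPS 1 to 5 of the 10 genes differed between a pair of tissues, in a fit without a term for the mouse. Between heart and brain 3 genes were called, Cxcl9 (log2 difference of levels 7.66 ± 1.03, edgeR adjusted p = 2.46e-09), Ackr3 (2.11 ± 0.50, 0.000324) and Cxcl16 (1.55 ± 0.45, 0.00326), all higher in heart, where 45.7% of 22007 genes were called. Between lung and heart 5 genes were called of 49.2% of all genes: Cxcl9 (-6.08 ± 1.06, 2.36e-06), Ackr3 (-2.45 ± 0.56, 0.000217), Cxcl12 (-2.50 ± 0.84, 0.0106) and Cxcl10 (-2.48 ± 0.99, 0.0325) were lower in lung by edgeR. Cxcl5 was higher there (5.34 ± 1.49, edgeR adjusted p = 0.0022), but this rested on lung replicate 1, since without it the difference was -1.24 (0.687). Between lung and brain Cxcl16 was called, higher in lung (1.61 ± 0.47, edgeR adjusted p = 0.0029), where 55.6% of all genes were. The counts of 3, 5 and 1 of 10 were near or below the shares over all genes, and they were 6, 5 and 2 when the series 1 mouse of 6 hr was left out.

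At 6 hr the edgeR test of the difference in response between tissues called 3 genes, in numbers near the shares over all genes. The fit over all 3 tissues had no term for the mouse. Limma-voom, with or without the mouse as a random block, called none of the 3 in these comparisons. Cxcl1 rose less in lung than in brain (difference of log2 fold changes -4.36 ± 1.42, edgeR adjusted p = 0.031), the 1 gene called in that comparison, where 13.3% of all genes were called and the median over all genes was -0.40. Between lung and heart, Cxcl5 rose less in lung (-6.50 ± 1.92, edgeR adjusted p = 0.0126) and Cxcl12 differed by 3.79 ± 1.14 (0.015), 2 genes of 10 where 18.1% of all genes were called and the median was -0.37. The Cxcl5 difference rested on lung replicate 1 of 0 hr, since without it the value was -0.029 (edgeR adjusted p = 1). Between heart and brain no gene was called by edgeR (0.636% of all genes), while 4 had an unadjusted p under 0.05, DESeq2 called 1, and edgeR called 2 without the series 1 mouse, Cxcl5 (5.25, adjusted p = 0.0393) and Cxcl16 (1.82, 0.0497). The Cxcl1 call was lost without brain replicate 2, lung replicate 2 or lung replicate 4 of 6 hr or lung replicate 2 of 0 hr, and the Cxcl12 call was lost without the shallow lung replicate 4 alone, though it held without all 3 libraries of that mouse (4.23, adjusted p = 0.00182). Without that mouse Cxcl2 (-4.52, edgeR adjusted p = 0.0374) and Cxcl12 (3.05, 0.0303) were called between lung and brain beside Cxcl1, and Cxcl1 (-3.35, 0.0347) and Cxcl16 (-1.81, 0.0363) between lung and heart beside Cxcl5 and Cxcl12. At 24 hr none of the 10 was called by edgeR between lung and brain (3.85% of all genes), heart and brain (0.327%) or lung and heart (1.67%), where 2, 2 and 1 had an unadjusted p under 0.05 and DESeq2 called 2, 1 and 0. Lung at 24 hr had 2 libraries only, and the 95% interval of the lung minus brain difference for Cxcl1 was -9.31 to -2.24 (edgeR adjusted p = 0.0519, and 0.00614 without the series 1 mouse).

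Levels at 24 hr were then set against those at 6 hr, first in heart. With all libraries 1 gene passed the test there, Cxcl2 (-3.82 ± 1.07, edgeR adjusted p = 0.039), where 4.74% of all genes were called, and this call was lost without any 1 of 7 libraries (adjusted p 0.0626 to 0.152). Without the series 1 mouse 8 did: Cxcl1, Cxcl2, Cxcl3, Cxcl5, Cxcl10, Cxcl11 and Cxcl16 fell, by 2.25 (Cxcl16) to 4.64 (Cxcl11) on the log2 scale, and Cxcl12 rose by 2.02 (edgeR adjusted p = 0.00126). Cxcl9 was not among them (-1.43, edgeR adjusted p = 0.0871), nor was Ackr3 (-0.38, 0.493). None of the 10 was called by edgeR between 24 and 6 hr in brain (0.291% of all genes) or lung (0.00586%), with or without that mouse, and DESeq2 called none, while 3 and 2 had an unadjusted p under 0.05.

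At 48 hr the mice spread widely, and the values are given by library series. By the names of the count files, 6 mice gave all 3 tissues at this time. In the 2 mice of series 2, brain Cxcl1 was at 51.5 and 15.2 CPM, lung Cxcl1 at 8.70 and 0.424 CPM, heart Cxcl12 at 1675 and 1573 CPM and heart Ackr3 at 177 and 165 CPM. In the 2 mice of series 4, brain Cxcl1 was at 1060 and 2713 CPM, lung Cxcl1 at 44.7 and 58.6 CPM, heart Cxcl12 at 267 and 519 CPM and heart Ackr3 at 1037 and 787 CPM. The 2 mice of series 1 held 1936 and 359 CPM of Cxcl1 in brain, 286 and 1716 CPM of Cxcl12 in heart and 761 and 203 CPM of Ackr3 in heart. For heart Cxcl12 and Ackr3, 1 mouse of series 1 thus was nearer to the values of series 4 and the other nearer to those of series 2. Lung Cxcl12 was at 4956 and 4496 CPM in series 2, at 67.5 and 91.5 CPM in series 4 and at 55.0 and 415 CPM in series 1. TMM scaling raised both series 2 values, and the factor of replicate 1, at 4956 CPM, was 0.242. Brain Cxcl12 was at 191 and 291 CPM in series 2, 349 and 493 CPM in series 4 and 310 and 470 CPM in series 1. Series 2 was thus the lowest there, by a smaller gap and in the other direction than in heart and lung. Other markers stood apart in the series 2 libraries too. In lung the summed macrophage markers were 3534 and 4559 CPM in series 2 against 318 to 523 CPM in the other 4 mice, the lung epithelial markers 10590 and 9900 CPM against 2043 to 2357 CPM, and 9.27% and 13.0% of reads were on genes against 37.4% to 44.4%. In brain the mural markers were 970 and 1538 CPM in series 2 against 41.8 to 210.5 CPM, the astrocyte markers 2945 and 2710 CPM against 535 to 1150 CPM and the fibroblast markers 601 and 432 CPM against 1858 to 4980 CPM. Their part in the chemokine values was not tested. Series and mouse cannot be told apart, and no test was made between these mice. Within series 1 and within series 2 all genes called at 48 hr kept their direction in brain (5), heart (3) and lung (1).

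**Figure D4:**
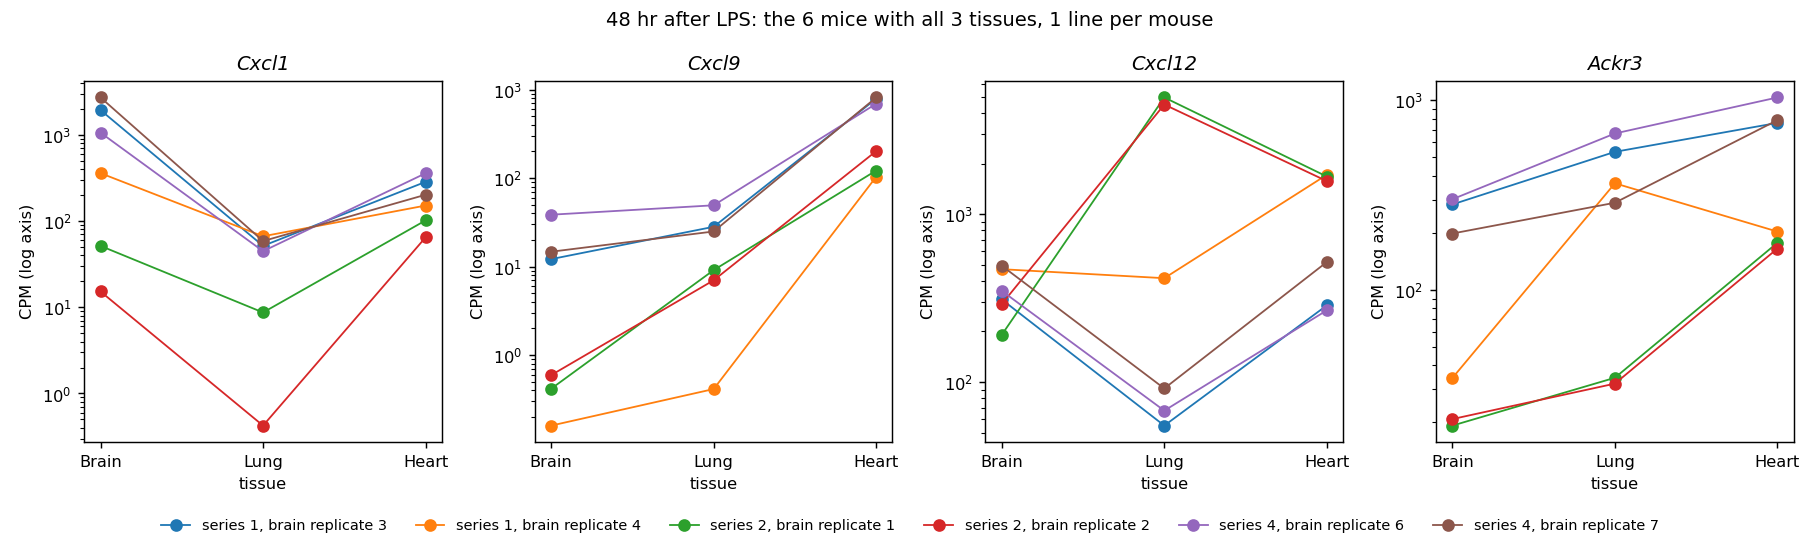
Levels of Cxcl1, Cxcl9, Cxcl12 and Ackr3 in CPM on log axes in brain, lung and heart of the 6 mice with all 3 tissues at 48 hr, with 1 line per mouse. In heart, Cxcl12 runs from 267 to 1716 CPM and Ackr3 from 165 to 1037 CPM, and the 2 mice of series 2 have the highest lung Cxcl12, at 4956 and 4496 CPM. TMM scaling raised both of these lung values.

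The receptors of these ligands and their partner genes were counted from lists. Of 9 other CXC and scavenger receptors, 1 of 5 tested rose in brain, 2 of 5 in heart and 2 of 8 in lung at 6 hr, and 1 fell in heart and 1 in lung, where 6.44%, 42.8% and 4.83% of all genes were called. The receptors given here were named after their values were seen. Ackr1, a scavenger of venous endothelium, was at 15.0 to 58.1 CPM in brain at 0 hr and at 882 to 1667 CPM at 24 hr, groups that do not overlap (log2 fold change 4.53 ± 0.81, edgeR adjusted p = 0.00121). It rose at each of 6, 24, 48 and 72 hr in all 3 tissues. Cxcr2, the neutrophil receptor, rose at 6 hr in heart (4.54 ± 1.22, edgeR adjusted p = 0.00569), to a median of 0.28 CPM. In lung it rose to a median of 16.6 CPM (3.79 ± 0.92, edgeR adjusted p = 0.0161). Cxcr4, the receptor of Cxcl12, fell in heart from a median of 60.4 CPM to 11.8 CPM (-1.97 ± 0.42, edgeR adjusted p = 0.00108). Cxcr3, the receptor of Cxcl9, Cxcl10 and Cxcl11, stayed at or below 0.839 CPM in every kept library.

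Among 6 other CXC ligands, 1 of 4 tested rose in brain, 3 of 4 in heart and 0 of 6 in lung at 6 hr by edgeR, where in lung 2 had an unadjusted p under 0.05. The counts of 6 hr in this paragraph stand beside 6.44%, 42.8% and 4.83% of all genes called in brain, heart and lung. Cxcl13, the B-cell-attracting ligand, rose in brain (3.29 ± 0.66, edgeR adjusted p = 0.00268) and heart (3.63 ± 1.13, 0.0133), at medians of 1.45 and 0.946 CPM. Pf4, a platelet chemokine, rose in heart from a median of 3.42 to 66.8 CPM (3.83 ± 0.58, edgeR adjusted p = 4.81e-05). Of 11 NF-kappaB target genes 11 rose in brain, 10 in heart and 3 in lung at 6 hr, with median log2 fold changes of 2.85, 3.59 and 1.86. Of 12 interferon-stimulated genes 10 rose in brain, 12 in heart and 3 in lung, with medians of 2.67, 3.48 and 1.98. At 24 hr 9, 8 and 0 of the NF-kappaB targets and 4, 10 and 1 of the interferon-stimulated genes were higher in brain, heart and lung, and at 48 hr 9, 7 and 1 and 0, 1 and 1. The shares of all genes called were 11.2%, 16.2% and 0.375% at 24 hr and 14.2%, 4.19% and 0.598% at 48 hr. Of the lists with no gene called by edgeR, 4 NF-kappaB targets in lung at 24 hr and 2 interferon-stimulated genes in brain at 48 hr had an unadjusted p under 0.05.

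Genes that followed the same course were sought among 9029 genes by Pearson correlation of mean log2 CPM over the 18 groups of tissue and time, centred within each tissue. The groups of a tissue share libraries' series and controls, and no test was made. Ctps (r = 0.966), Ccl2 (0.965), a monocyte chemokine, and Lcn2 (0.956) were most like Cxcl1. Cd274 (0.968), which encodes PD-L1, Rsad2 (0.927) and Gbp2 (0.927) were most like Cxcl9. Cd274 (0.958), Rgs16 (0.951) and Gbp3 (0.949) were most like Cxcl10, and Ptges2 (0.949), Riok3 (0.928) and Spry4 (0.926) most like Ackr3.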

How the data were processed

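RNA of HA-tagged ribosomes was sequenced. The deposited files hold raw read counts per gene, which the authors made with STAR 2.4.2 and HTSeq 0.6.1 on mm10 according to the submitters' processing notes. The annotation release and the strand setting are not given in the sources used here, and reads without a unique alignment stood in a line of their own and were not used. Runs of a library were summed, and libraries with under 3% of reads on genes were left out. Genes passing filterByExpr were tested in edgeR 4.0.16 (R 4.3.3) by the two-sided quasi-likelihood test with TMM scaling and the library series as covariate, in 1 fit per tissue and 1 joint fit for differences between tissues, with Benjamini-Hochberg adjustment over all genes tested and a threshold of 0.05. Levels in log2 CPM used a prior count of 2. Library series and mouse were read from file names, since the labels do not give them. By these names 23 mice gave all 3 tissues and 5 gave 2, and the joint fit treated their libraries as independent. The 10 genes and all lists were chosen with earlier results of these data known. All 10 genes are named, and for Cxcl1, Cxcl9, Cxcl10 and Ackr3 the 3 genes with the highest correlation. Alternatives were limma-voom 3.58.1, DESeq2 1.42.0, other scaling, filter, covariate, library and block choices. Figures and sums were made in Python 3.11.15.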

Additional observations from a re-analysis of the deposited data

Results flagged for a closer look

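Among 170 groups of 4 to 6 libraries, 20 held a value set apart from the others of its group by Dixon's test, and chance alone sets apart about 1 in 20 groups. Of these, 9 are heart replicate 5 of 6 hr, the series 1 mouse, at 4.14 CPM of Cxcl1, 0.197 CPM of Cxcl2, 0 CPM of Cxcl3, 0 CPM of Cxcl5, 101 CPM of Cxcl9, 30.5 CPM of Cxcl10, 0 CPM of Cxcl11, 1987 CPM of Cxcl12 and 61.0 CPM of Cxcl16. In lung the same mouse (replicate 4 of 6 hr) was set apart by 0 CPM of Ackr3, where 3 counts would be 84.3 CPM, more than the 56.4 to 70.8 CPM of the other 6 hr libraries, so that this 0 cannot be told apart from their levels at this depth.

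The other values set apart lie in libraries of several times, and both of Cxcl3 are 1 count beside 0 counts in the rest of their group, which any single count would give. At 0 hr these were brain replicate 3 with 0.0352 CPM of Cxcl3, lung replicate 1 with 33.0 CPM of Cxcl5 and lung replicate 4 with 105 CPM of Ackr3. At 48 hr they were lung replicate 6 with 55.4 CPM of Cxcl10 and heart replicate 7 with 0.0744 CPM of Cxcl11. At 72 hr they were heart replicate 1 with 75.5 CPM of Cxcl16 and heart replicate 5 with 349 CPM of Ackr3. At 168 hr they were brain replicate 4 with 0.0277 CPM of Cxcl3, lung replicate 1 with 2.11 CPM of Cxcl10 and brain replicate 1 with 21.1 CPM of Cxcl16.

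Differences in response at 6 hr were called by the edgeR interaction test for Cxcl1 between lung and brain (-4.36 on the log2 scale), and for Cxcl12 (3.79) and Cxcl5 (-6.50) between lung and heart. Their numbers were near the shares over all genes, 13.3% and 18.1%. The Cxcl5 value was -0.029 without lung replicate 1 of 0 hr.

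The 18 libraries left out for their low share of reads on genes also held chemokine reads with a counting interval above that of the left-out 0 hr library of the tissue, in CPM of all gene counts and with no replicate. Brain at 6 hr held 291 CPM of Cxcl1, 49.3 CPM of Cxcl2, 16.9 CPM of Cxcl5, 26.2 CPM of Cxcl9 and 26.2 CPM of Cxcl10. Brain at 24 hr held 79.7 CPM of Cxcl1 and 20.8 CPM of Cxcl16. Heart at 6 hr held 83.5 CPM of Cxcl1, 482 CPM of Cxcl9 and 69.8 CPM of Cxcl10, and heart at 24 hr 91.4 CPM of Cxcl1 and 103 CPM of Cxcl9. Lung at 24 hr held 19.0 CPM of Cxcl16. At 48 hr the values were 34.2 CPM of Cxcl1 in brain, 55.8 CPM of Cxcl16 in heart, and 11.3 CPM each of Cxcl16 and Ackr3 in lung.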

How the results depend on the processing

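The counts of the 10 genes called stayed within 1.5 times of the reported ones except where given here, and the cause of these changes was not tested. With limma-voom the count was 4 for brain 24 hr, 2 for brain 48 hr, 6 for brain 6 hr, 0 for brain 72 hr, 5 for heart 24 hr, 0 for heart 24 against 6 hr, 0 for heart 48 hr, 1 for lung 24 hr, 0 for lung minus brain response at 6 hr, 3 for lung minus heart level and 0 for lung minus heart response at 6 hr. With no filter on low counts the count was 4 for brain 24 against 6 hr, 8 for brain 48 hr, 4 for brain 72 hr, 7 for heart 24 against 6 hr, 9 for heart 48 hr, 5 for heart 72 hr, 8 for heart minus brain level, 3 for heart minus brain response at 24 hr, 4 for heart minus brain response at 6 hr, 2 for lung 168 hr, 2 for lung 48 hr, 1 for lung 72 hr, 6 for lung minus brain level, 4 for lung minus brain response at 24 hr, 4 for lung minus brain response at 6 hr, 2 for lung minus heart response at 24 hr and 5 for lung minus heart response at 6 hr. With DESeq2 the count was 3 for brain 72 hr, 6 for heart 24 against 6 hr, 5 for heart 48 hr, 3 for heart 72 hr, 5 for heart minus brain level, 1 for heart minus brain response at 24 hr, 1 for heart minus brain response at 6 hr, 1 for lung 168 hr, 3 for lung 48 hr, 1 for lung 72 hr, 3 for lung minus brain level, 2 for lung minus brain response at 24 hr and 3 for lung minus brain response at 6 hr. Without the series 1 mouse of 6 hr the count was 2 for brain 72 hr, 8 for heart 24 against 6 hr, 7 for heart 48 hr, 4 for heart 72 hr, 6 for heart minus brain level, 2 for heart minus brain response at 6 hr, 2 for lung minus brain level, 1 for lung minus brain response at 24 hr, 3 for lung minus brain response at 6 hr and 4 for lung minus heart response at 6 hr. With all 98 libraries the count was 3 for heart 24 against 6 hr, 2 for lung 48 hr, 1 for lung minus brain response at 24 hr and 2 for lung minus brain response at 6 hr. Without the covariate for library series the count was 4 for heart 24 against 6 hr, 6 for heart 48 hr, 2 for lung 48 hr and 2 for lung minus brain level. With libraries of at least 1000000 counts the count was 5 for heart minus brain level, 0 for lung minus brain response at 6 hr and 1 for lung minus heart response at 6 hr. With RLE scaling the count was 2 for lung minus brain response at 6 hr. With the mouse as a random block in limma-voom the count was 0 for lung minus brain response at 6 hr, 3 for lung minus heart level and 0 for lung minus heart response at 6 hr.

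Leaving out each library in turn gave counts of 5 to 7 for brain 24 hr, 2 to 6 for brain 48 hr, 9 to 10 for brain 6 hr, 0 to 1 for brain 72 hr, 7 to 9 for heart 24 hr, 0 to 8 for heart 24 against 6 hr, 0 to 1 for heart 72 hr, 3 to 4 for heart minus brain level, 0 to 2 for heart minus brain response at 6 hr, 0 to 2 for lung 24 hr, 0 to 2 for lung 48 hr, 5 to 7 for lung 6 hr, 1 to 2 for lung minus brain level, 0 to 1 for lung minus brain response at 24 hr, 0 to 2 for lung minus brain response at 6 hr, 3 to 5 for lung minus heart level and 1 to 4 for lung minus heart response at 6 hr, and the other comparisons kept their count. In the tests between tissues the libraries of 24 hr and those of brain at 0 hr were not left out in turn. Where a group was left with 1 library, that library is assumed to vary like the other groups. Over these fits the lung minus heart level of Cxcl5 ran from -1.24 (without lung replicate 1 of 0 hr) to 5.80, and Cxcl12 in heart between 24 and 6 hr from -0.37 to 2.02 (without replicate 5 of 6 hr). Calls lost without 1 or more libraries were also those of Cxcl3 in brain at 24 hr and heart at 24 hr, of Cxcl3, Cxcl5 and Cxcl12 in brain at 48 hr and of Cxcl10 between lung and heart at 0 hr.

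With the replicate number as a block the count was 4 for brain 24 hr, 0 for brain 72 hr, 1 for heart 48 hr, 0 for lung 24 hr and 0 for lung minus brain response at 6 hr. The replicate numbers did not pair the samples, since 16 of 57 pairs had a correlation of deviations over 0.1 (range -0.557 to 0.702), so this block is an alternative and not the design.

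Without the series 1 mouse, Cxcl12 in heart between 24 and 6 hr turned to 2.02. Within library series 1 alone, whose only 6 hr mouse is that one, log2 changes at 6 hr turned to -0.027 (Cxcl1), -0.53 (Cxcl2), -1.38 (Cxcl5), -0.71 (Cxcl11), 0.11 (Cxcl12) and -0.36 (Cxcl16) in heart and to -2.54 (Cxcl2), -4.33 (Cxcl10) and -0.41 (Cxcl11) in lung. With mean log2 levels in place of sums, the ligand comparison gave -0.60 in brain at 6 hr, 1.69 in brain at 24 hr and -2.58 in heart at 6 hr. Of 264 single-gene values with an adjusted p, DESeq2 kept direction and side of the threshold in 233, and limma-voom did in 241 of 270. Lung depth limits its values: 1 lung library at 6 hr had 284457 counts, and 2 lung libraries were kept at 24 hr. Lung replicates 1 and 2 of 6 hr had 2678119 and 2745503 counts, against 40128330 in replicate 3.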
